A study of Saccharomyces cerevisiae with 2 samples.

Results

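All 10 genes of the yeast sterol pathway between squalene synthesis and zymosterol, *ERG9*, *ERG1*, *ERG7*, *ERG11*, *NCP1*, *ERG24*, *ERG25*, *ERG26*, *ERG27* and *ERG28*, were measured in the *sdh3*Δ mutant of *Saccharomyces cerevisiae*. They were chosen by gene symbol, and each had 1 probe set annotated for it, out of 5656 genes with a probe set of their own. The data are 2 Affymetrix Yeast Genome S98 arrays of 1 group, where several short probes, together called a probe set, report on each transcript. Both samples carried the deletion of *SDH3*, the cytochrome b subunit of succinate dehydrogenase, in the background of strain CENPK 113-5D, a Mat a strain that needs uracil. They were grown aerobically in batch culture on minimal medium with glucose and uracil, and cells were taken when the glucose had reached 20 ± 2 g/liter. The sources used here do not say whether the replicates came from separate cultures, so their spread may be technical. Arrays of the reference strain, which belong to an earlier study, were not analysed here, and no difference between strains is given.

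Ergosterol is the main sterol of yeast membranes. Its synthesis turns farnesyl units into squalene, closes squalene to lanosterol, and then removes methyl groups from lanosterol to give zymosterol. Several of these steps use molecular oxygen, which makes this stretch of the pathway dependent on aeration, and some of its enzymes carry heme or iron. The study asked how the loss of succinate dehydrogenase, an enzyme of the respiratory chain, acts on transcription as a whole. The transcript levels of these enzymes in the mutant are given here with the difference between the replicates.

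*SDH3* itself had intensities of 22.0 and 29.3 in *sdh3*Δ replicates 1 and 2, not above background on either array. Background was taken as the highest of 19 control probe sets for bacterial and mouse genes, 54.8 on the array of replicate 1 and 92.1 on that of replicate 2. Of all 9275 probe sets other than controls, 58.9% were above this limit in replicate 1 and 34.0% in replicate 2. Across 9264 of them with values above 0 the log2 ratio of replicate 2 over replicate 1 had a median of 0.06 and an SD of 0.71. All 9 hybridization controls, bacterial and phage transcripts added for hybridization, were higher in replicate 2, with a median log2 ratio of 0.49. Actin control probe sets had a ratio of the 3′ over the 5′ signal, a measure of RNA integrity, of 1.02 in replicate 1 and 1.13 in replicate 2. For the control gene *SRB4* it was 2.74 and 1.17, but apart from the 3′ value of replicate 1 these signals were not above background. For the control gene *SPT15* it was 1.03 and 0.93, with both signals above background in replicate 1 and neither in replicate 2. Any part of RNA quality in the differences between replicates was not tested. Of the markers of mating type a, 4 of 5 were above background on both arrays. Of all 5, 4 were lower in replicate 2 and 1 was higher. The higher one was *MFA1*, averaged over 2 probe sets, with 670 and 1245. Among the lower ones *MFA2* had 1833 and 690, *STE2* 442 and 169, and *BAR1* 266 and 203. Of those of mating type alpha 1 of 4 was above background on both arrays, *MF(ALPHA)1*, with 113 and 177. All 4 had higher values in replicate 2, where the background limit was higher too. What underlies these differences was not tested.

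All 10 sterol genes were above background on both arrays, and 8 were with antisense control probe sets included in the limit, which left out *ERG7* and *ERG26*. All 10 lay in the upper deciles 8 to 10 of mean intensity, while 34.0% of all probe sets passed the first limit in replicate 2. The share passing on both arrays, or with the antisense controls, was not computed. *MF(ALPHA)1*, a marker of the mating type that this strain does not have, passed both limits too, with 113 and 177. Passing a limit thus does not by itself show that a gene was expressed. Between the replicates 7 of them were within 2-fold of each other, *ERG26* and *ERG28* were lower in replicate 2 and *NCP1* was higher. The intensities are on a linear scale and are taken as dChip values from the study's methods. Since probe sets bind with different strength, levels are compared here within a gene and not between genes. With 1 group of 2 arrays no test was possible, and each difference is set against the spread of other probe sets.

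**Figure D1:**
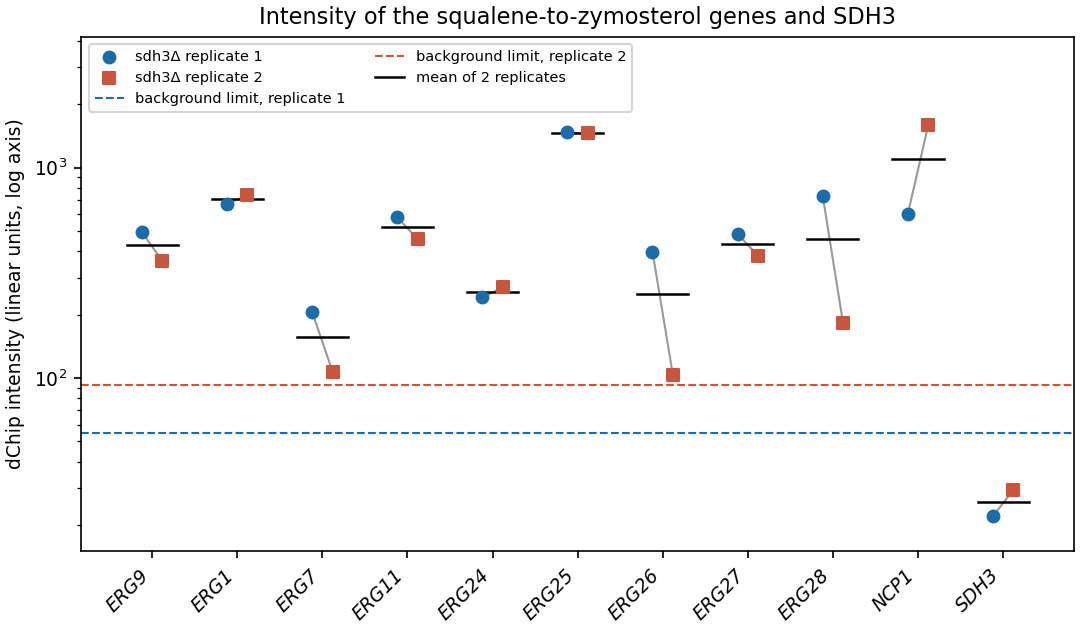
Intensity of the 10 squalene-to-zymosterol genes and of *SDH3* (linear units, taken as dChip values, on a log axis) in *sdh3*Δ replicate 1 (circles) and replicate 2 (squares), with the mean as a black line and each array's background limit dashed. All 10 sterol genes lie above both limits and *SDH3* below them, and the widest gaps between replicates are those of *ERG28*, *ERG26* and *NCP1*.

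The genes of the 3 oxygen-using enzymes differed by 1.27-fold or less between the replicates, as did *ERG24* and *ERG27*, whose enzymes use no oxygen. *ERG1* (YGR175C) encodes squalene epoxidase, which adds an oxygen atom to squalene and is the target of the antifungal terbinafine. Its intensities were 675 in replicate 1 and 738 in replicate 2, a mean of 706 ± 44.7 (SD, n = 2). *ERG11* (YHR007C), the heme-containing lanosterol demethylase that azole antifungals inhibit, had 582 and 458, a mean of 520 ± 87.8 (SD, n = 2). *ERG25* (YGR060W) encodes the iron-dependent sterol methyl oxidase that begins the removal of the remaining methyl groups. Its values of 1473 and 1456 gave a mean of 1464 ± 11.8 (SD, n = 2). The log2 ratios of replicate 2 over replicate 1 were 0.13 for *ERG1*, -0.35 for *ERG11* and -0.02 for *ERG25*. Centred on the hybridization controls, a scaling chosen after the data were seen, they were -0.36, -0.84 and -0.51. Of the 10 genes *ERG25* had the smallest difference between replicates, a fold of 1.01.

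*NCP1* (YHR042W) differed more between the replicates than *ERG1* and *ERG11*, whose enzymes it serves. It encodes the reductase that passes electrons from NADPH to *ERG11* and also supplies squalene epoxidase. Its intensity was 601 in replicate 1 and 1595 in replicate 2, a mean of 1098 ± 702 (SD, n = 2). The ratio was 2.65-fold, or 1.41 on the log2 scale, and *NCP1* was the only one of the 10 genes that was higher in replicate 2 by 2-fold or more. With ratios centred on the hybridization controls its log2 ratio was 0.91, below 2-fold. In decile 10 of mean intensity, which holds *NCP1*, 29.0% of all probe sets differed by 2-fold or more.

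The enzymes of the early and middle steps that use no oxygen were within 2-fold between the replicates. *ERG9* (YHR190W), squalene synthase, which commits farnesyl units to sterols, had 493 in replicate 1 and 361 in replicate 2, a mean of 427 ± 93.9 (SD, n = 2) and a log2 ratio of -0.45. *ERG7* (YHR072W), lanosterol synthase, which folds oxidosqualene into the ring system, had 206 and 107, a mean of 157 ± 70.2 (SD, n = 2). Its log2 ratio of -0.95 was just inside 2-fold, and its value in replicate 2 was 1.16 times the background limit of that array. *ERG24* (YNL280C), the sterol reductase that acts after *ERG11*, had 242 and 269, a mean of 256 ± 19.6 (SD, n = 2) and a log2 ratio of 0.16. *ERG9* and *ERG7* were thus lower in replicate 2, and *ERG24* was nearly level. Centred on the hybridization controls, *ERG7* passed 2-fold at a log2 ratio of -1.44.

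The genes of the demethylation complex differed among themselves. Erg25, Erg26 and Erg27 act in sequence to remove the methyl groups of the sterol, and Erg28 holds them together at the endoplasmic reticulum. *ERG26* (YGL001C), the dehydrogenase that also removes the carboxyl group, had 399 in replicate 1 and 103 in replicate 2, a mean of 251 ± 209 (SD, n = 2). *ERG28* (YER044C), the scaffold, had 735 and 182, a mean of 458 ± 391 (SD, n = 2). *ERG27* (YLR100W), the ketosteroid reductase, had 485 and 381, a mean of 433 ± 73.3 (SD, n = 2). The intensity of *ERG26* in replicate 2 was 25.8% of that in replicate 1, and that of *ERG28* 24.7%. On the log2 scale the ratios were -1.95 for *ERG26* and -2.02 for *ERG28*, against -0.35 for *ERG27* and -0.02 for *ERG25*. In replicate 2 *ERG26* was only 1.12 times the background limit, and *ERG28* was 1.97 times it. For *ERG26* and *ERG28* the SD was nearly as large as the mean, so these 2 arrays fix the mutant's level of these genes poorly.

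**Figure D2:**
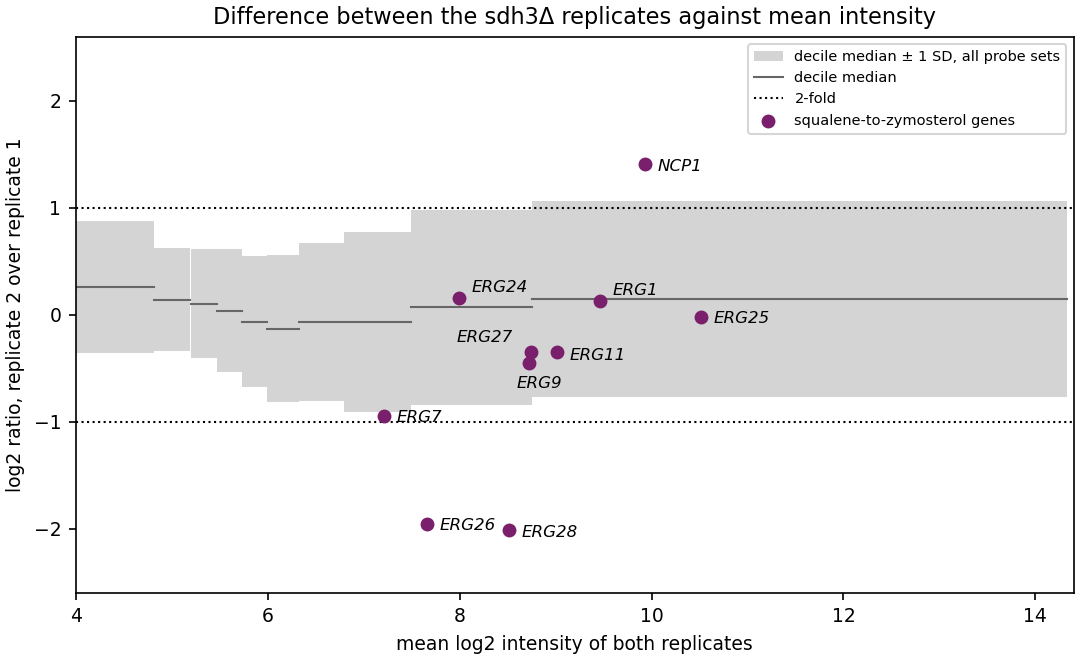
Log2 ratio of replicate 2 over replicate 1 against the mean log2 intensity for the 10 genes (points), with the median ± 1 SD of all probe sets in each decile of mean intensity (grey steps) and 2-fold as dotted lines. *ERG26* and *ERG28* lie near -2 and *NCP1* at 1.41, outside the grey band, and *ERG7* lies just below it.

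Differences of 2-fold or more were frequent between these arrays, above all among brighter probe sets. Of all 9264 probe sets 14.1% differed by 2-fold or more, 3.92% higher and 10.2% lower in replicate 2. With each array centred on its median these shares were 6.24% and 7.93%. Of the 10 sterol genes 3 differed by 2-fold or more, 1 higher and 2 lower, and centred on the hybridization controls 0 were higher and 3 lower, beside 0.432% and 25.2% of all probe sets. All 10 lay in the upper deciles 8 to 10 of mean intensity, where 26.1% of 2779 probe sets differed by 2-fold or more. A count of 3 of 10 is near that share. In decile 9, which holds *ERG26* and *ERG28*, ratios had an SD of 0.91 on the log2 scale, and both genes lay over 2 such SDs below 0, at -2.14 and -2.21. *NCP1*, in decile 10, lay at 1.53 SDs, *ERG7*, in decile 8, at -1.12, and the other 6 genes between -0.49 and 0.17 SDs. At a fold of 1.5 the count was 4 of 10, with *ERG7* added, against 40.0% of all 9264 probe sets. The share in deciles 8 to 10 alone was not computed at this fold.

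Over the 10 genes the median log2 ratio was -0.35, beside 0.06 for all probe sets, with 7 genes lower and 3 higher in replicate 2. Since the 10 values share the same pair of arrays, they are not replicates of each other. The directions of the small differences depended on the scaling. *ERG1* was lower in replicate 2 when ratios were centred on the hybridization controls (-0.36) or within deciles of mean intensity (-0.02). The scaling within deciles, too, was not planned. *ERG24* was lower with the hybridization controls only (-0.34), and *ERG25* was above 0 after centring on medians (0.10) or quantile normalization (0.04). The median of all probe sets was then 0.17 and 0.09, so *ERG25* lay below it under both scalings. *ERG26* and *ERG28* were lower by 2-fold or more under every scaling tried. With ratios near -2 this says little, since the scalings moved the median of all probe sets only by -0.49 to 0.12.

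Of the 9 genes of the mevalonate steps, which make the farnesyl units, 7 were above background on both arrays. With the values as deposited, these 7 were within 2-fold between the replicates. The lowest ratio was that of *IDI1*, which encodes isopentenyl diphosphate isomerase and had 283 in replicate 1 and 70.4 in replicate 2. The value in replicate 2 was not above background, which makes it at least 3.08-fold lower there. *HMG2*, an isoenzyme of the reductase that controls the mevalonate pathway, was highest, with 186 and 366 and a log2 ratio of 0.98. Centring on medians, which adds 0.12 to each log2 ratio, takes *HMG2* past 2-fold. *ERG12*, mevalonate kinase, has 4 probe sets, of which the plain ones were not above background in replicate 2. The first of these had 59.2 in replicate 1 and 84.5 in replicate 2, and the second, with 269 and 78.2, was at least 2.92-fold lower in replicate 2. The others had 209 and 114, and 207 and 89.5. Of the 5 genes of the final steps, from zymosterol to ergosterol, 5 were within 2-fold and above background on both arrays. Their log2 ratios ran between -0.44 for *ERG5*, the heme-containing sterol desaturase, and 0.74 for *ERG2*, a sterol isomerase. The median log2 ratio was -0.13 for the mevalonate steps and -0.02 for the final steps. Whether the 10 genes differ from these lists was not tested.

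**Figure D3:**
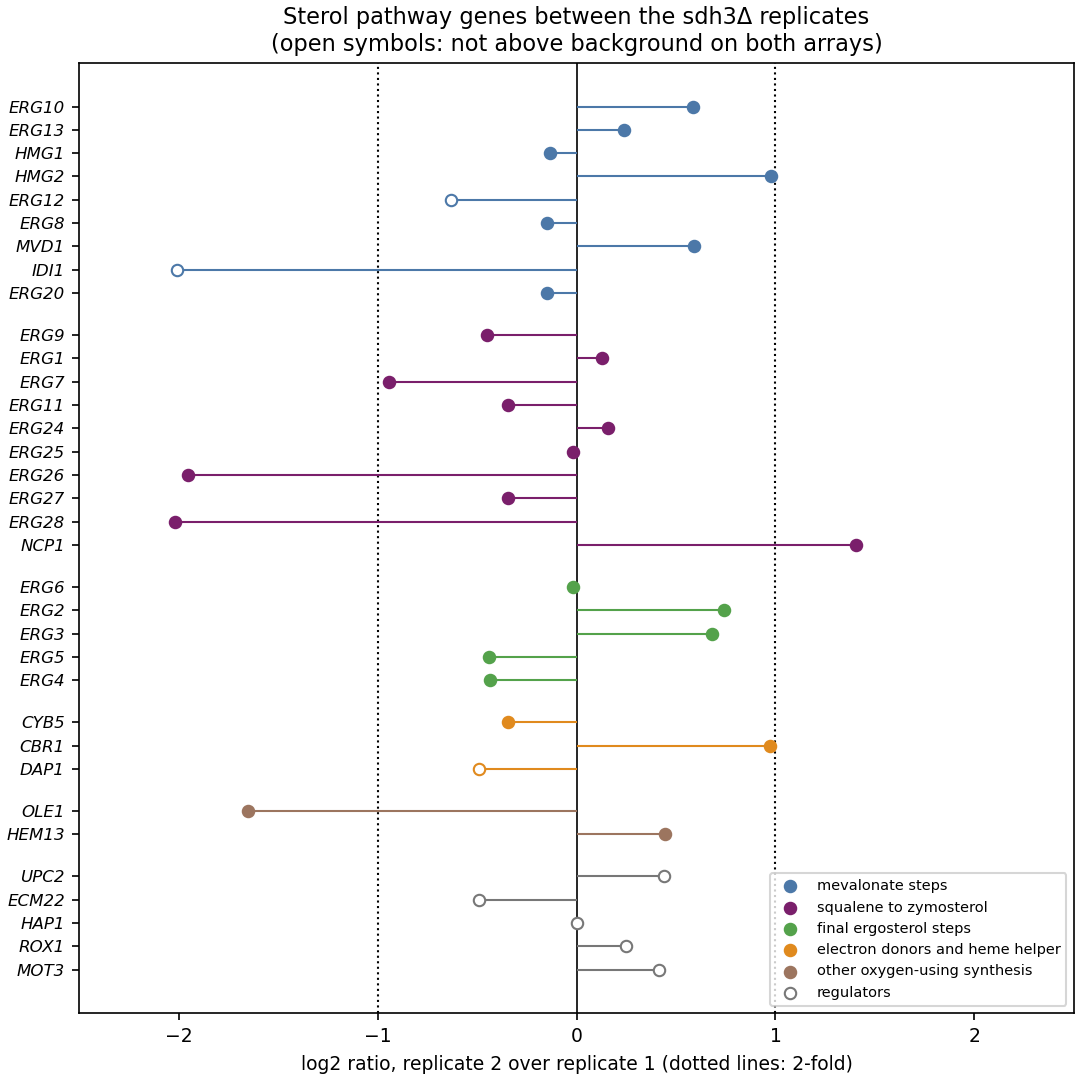
Log2 ratio of replicate 2 over replicate 1 for each gene of the sterol pathway in pathway order, with its electron donors, other oxygen-using enzymes and regulators (colors by list, dotted lines at 2-fold, open symbols for genes not above background on both arrays). *ERG26*, *ERG28*, *IDI1* and *OLE1* lie left of the lower line, and *NCP1* alone lies right of the upper one.

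Of the 3 genes that serve the oxygen-using steps 2 were above background on both arrays, and both were within 2-fold with the values as deposited. *CBR1*, which encodes cytochrome b5 reductase, had 1050.4 in replicate 1 and 2063 in replicate 2, a log2 ratio of 0.97. Centring on medians, which adds 0.12 to each log2 ratio, takes *CBR1* past 2-fold. *CYB5*, the carrier that takes electrons to *ERG25* and other enzymes, had 228 and 179, a log2 ratio of -0.35. *DAP1*, a heme-binding partner of *ERG11*, had 93.0 and 66.2, not above background in replicate 2, and was at least 1.01-fold lower there. Among enzymes outside the sterol pathway that use oxygen, *OLE1*, the fatty acid desaturase, had 381 in replicate 1 and 121 in replicate 2, a log2 ratio of -1.65. *HEM13*, which encodes a heme synthesis oxidase, had 192 and 262, a log2 ratio of 0.44. Both genes were above background on both arrays.

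The known transcription regulators of sterol and oxygen response genes were at or near background. Of 5 measured, 0 were above it on both arrays. Such values were usual here, since of all probe sets other than controls 58.9% passed the limit in replicate 1 and 34.0% in replicate 2. The median of these probe sets was 67.0 in replicate 1 and 61.8 in replicate 2. *UPC2*, an activator of *ERG* genes, had 31.6 and 42.8, and *MOT3*, a repressor, 48.8 and 65.1, neither above background on any array. *ECM22*, the paralog of *UPC2*, had 65.5 and 46.7, *HAP1*, the heme-dependent activator, 82.2 and 82.5, and *ROX1*, the repressor of hypoxic genes, 72.2 and 85.9. These 3 were above the limit in replicate 1 and not in replicate 2, where the limit was higher, so no fold is given for them.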

How the data were processed

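Total RNA of 2 *sdh3*Δ samples was labeled and hybridized to Yeast Genome S98 arrays. Scans were scaled by the authors in Microarray Suite (MAS5 in the submitters' processing notes) and normalized in dChip, whose Perfect Match model gave 1 intensity per probe set. The deposited intensities are linear and were used unchanged. That they are the dChip output is taken from the study's methods and was not checked. The 9335 probe sets include 60 controls. The platform annotation names 6504 for 1 gene, 328 for several and 2443 of the others for none. All 6504 were found in the R64 gene table, which gave systematic names. On the log2 scale 11 probe sets with a value at or below 0 were left out.

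With 1 group, values are means ± SD over 2 replicates, and replicate ratios are log2 differences described beside all probe sets, with no test. The number of arrays limits the precision. Where a gene had several plain probe sets, or only others as *MFA1* had, their log2 values were averaged. Named are all 10 genes, *SDH3*, and the highest and lowest ratio of each fixed pathway list, while *ERG12*, *MOT3*, *HAP1*, *ROX1*, *CYB5* and the mating type genes were named after their values were seen. The genes and lists were chosen with earlier results of these data known. The calculation of ratios and scalings was checked on simulated arrays. Alternatives were scalings, an added constant of 16, other limits and folds. Planned promoter motif searches were not run, as no sequence was used here. Python 3.11.15, numpy 2.4.6, pandas 2.3.3 and matplotlib 3.10.9 were used.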

Additional observations from a re-analysis of the deposited data

How the results depend on the processing

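The mean level of each of the 10 genes moved by less than 1 SD when arrays were scaled to a common median. This says little, since the array medians were 67.0 and 61.8, and so close a pair could hardly move a mean. Each gene has 1 probe set, so using all probe sets changed nothing. With replicate 1 or 2 left out, the levels ran from 361 to 493 for *ERG9*, 675 to 738 for *ERG1*, 107 to 206 for *ERG7*, 458 to 582 for *ERG11*, 242 to 269 for *ERG24*, 1456 to 1473 for *ERG25*, 103 to 399 for *ERG26*, 381 to 485 for *ERG27*, 182 to 735 for *ERG28* and 601 to 1595 for *NCP1*. These are the values of the single arrays, which differed by over 1.5-fold for *ERG7*, *ERG26*, *ERG28* and *NCP1*. Centring on the hybridization controls moved the median log2 ratio over the 10 genes to -0.84, with that of all probe sets at -0.44, a shift of -0.49 by construction, and 9 of 10 genes below 0. Centring each array on its own median shifted the median ratio of all probe sets by 0.12, to 0.17, so it did not bring that median to 0. Under the other scalings, the added constant and the limit to genes above background, the median over the 10 genes ran between -0.45 and -0.22 and the count past 2-fold was 3. The value of -0.45 came from centring within deciles of mean intensity, which was not planned. Of all probe sets past 2-fold, 72.2% were lower in replicate 2 as deposited, 56.0% after centring on medians, 62.7% after quantile normalization and 98.3% with the hybridization controls. With the antisense control probe sets in the background limit, chosen after the data were seen, 8 of the 10 genes were above it on both arrays, without *ERG7* and *ERG26*, and with the other limits 10 were. No paired analysis was possible because there is only 1 group. Signal over background limits what can be said of *ERG26* and *ERG7* in replicate 2.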
